A study of Mus musculus with 2 samples.

Results

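The S100 family was examined in colitis-associated colon tumors (CACs) of mice through 9 of its mRNAs, *S100a8*, *S100a9*, *S100a4*, *S100a6*, *S100a10*, *S100a11*, *S100a14*, *S100a16* and *S100g*. These genes were chosen by name, and their rows were taken from a table of 32291 genes, 17 of which are S100 genes. All 9 had UMIs (unique molecular identifiers, which count an amplified mRNA molecule as 1), from 3977 for *S100g* to 1783538 for *S100a6* over 38883 cells. The cells carry an annotation of 11 cell types by the authors, and the levels of each mRNA are given for each cell type in both libraries.

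CACs were induced in mice of 6 to 10 weeks of age with 10 mg/kg azoxymethane (AOM), given 5 days before each of the early cycles of dextran sodium sulfate (DSS). The 3 DSS cycles lasted 5 days each, at 2.5% in the early cycles and 2% in the last, with 16 days of water between them, and mice were sacrificed on day 110. The groups were labelled Mir34a_F/F, with floxed *Mir34a* alleles and no Cre, and Mir34a_Mye_KO, with the same floxed alleles and LysM-Cre, which is expressed from *Lyz2* and deletes in macrophages, neutrophils and other cells of the myeloid lineage. For each genotype, 6 to 8 tumors of 3 female mice were combined and 30000 cells were loaded for single-cell RNA sequencing that tags mRNAs at the 3′ end, which gave 1 library per genotype. Differences between the genotypes therefore have no replicate and were not tested. The intervals below are nominal 95% intervals for counting error only, not for the variation between cells or mice.

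S100 proteins are small calcium-binding proteins with a pair of EF-hand motifs, most of which act as dimers. S100A8 and S100A9 form calprotectin, an abundant cytosolic complex of neutrophils and some monocytes that chelates zinc and manganese, is released during inflammation and is measured in stool as a marker of intestinal inflammation. S100A4 binds non-muscle myosin and is known from motile cells, S100A6 binds the calcyclin-binding protein, S100A10 forms a complex with annexin A2, and S100A11 binds annexin A1. S100A14 and S100A16 are found in many epithelia, and S100G is calbindin-D9k, a vitamin D-dependent calcium buffer of absorptive intestinal cells.

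The level of an mRNA is the mean over the cells of a type of its UMIs per 10000 UMIs of the cell, and 1 UMI stands for 1 molecule irrespective of the length of the mRNA. Paired values are given first for the library labelled Mir34a_F/F and then for the library labelled Mir34a_Mye_KO. These libraries held 20312 and 18571 cells and 147109016 and 193133086 UMIs, with medians of 4787 and 7716 UMIs per cell, and the latter was the deeper in 11 of 11 cell types, with a ratio of median depth from 1.11 (endothelial cells) up to 5.69 (B cells). Median mitochondrial content was 4.63% and 6.28%, and 2470 and 4130 cells were at or above 25%. The primary transcript of *Mir34a* had 133 and 462 UMIs in macrophages, a log2 ratio of 1.03 (0.74 to 1.32), which goes against the direction of a deletion of the sequence counted. A feature named crenlslyz2 had 451 and 172 UMIs in macrophages, a log2 ratio of -2.16, beside 3892 and 1379 UMIs and -2.27 for *Lyz2*. LysM-Cre is a knock-in at *Lyz2*, so the lower *Lyz2* runs the way the labels say, whereas the primary transcript does not. *Lyz2* was lower in T cells as well, with 57 and 27 UMIs and a log2 ratio of -1.92. The feature crenlslyz2 had more UMIs in the library labelled as without Cre, so it is not read as a measure of Cre. These features run in different directions. Macrophages numbered 2208 and 2601 and had 10382 and 23817 UMIs of *Csf1r*, the receptor of colony-stimulating factor 1, a log2 ratio of 0.43 (0.39 to 0.46), both of which are outcomes of the study and not a check of the deletion. The libraries are called by their labels, and every direction rests on these. Of 38883 barcodes, 96 occurred in both libraries, 43 of them with the same cell type.

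The 11 annotated cell types were compared with 5 markers each. All 5 were highest in their own type in both libraries for 10 of the types, and 4 of 5 for basophils, the exception being *Fcer1a*, a chain of the IgE receptor. Cells per type ranged from 11614 and 9865 epithelial cells to 48 basophils and 30 erythroid cells.

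Of the 9 genes, 8 lie on mouse chromosome 3 (GRCm38, the mm10 build), in or near the S100 cluster. *S100a14* (chr3:90526856-90528837), *S100a16* (chr3:90537254-90543151), *S100a4* (chr3:90603771-90606045), *S100a6* (chr3:90612882-90624181) and *S100a8* (chr3:90668978-90670035) are on the plus strand and *S100a9* (chr3:90692632-90695721) is on the minus strand. *S100a11* (chr3:93520488-93526287) and *S100a10* (chr3:93555080-93564643) lie apart from these on the same chromosome (plus strand), and *S100g* (chrX:162961992-162964599, minus strand) is on the X chromosome. Genes close to each other in the cluster differed in where they were found. *S100a4* was highest in dendritic cells and *S100a6*, with *S100a5* between them, in neutrophils.

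Promoter sequences are shown for *S100a4* and *S100a6* and for *S100a8* and *S100a9*, the pair with the most similar levels. They come from the RefSeq promoter table (GRCm38.p6), which matched 7 of the 9 genes and did not list *S100a10* and *S100a14*. The windows end just before the RefSeq start of the gene and are written 5′ to 3′ on the strand of the gene, chr3:90668821-90668977 for *S100a8*, chr3:90695722-90695971 for *S100a9*, chr3:90603520-90603769 for *S100a4* and chr3:90612644-90612881 for *S100a6*. Capitals mark matches, on either strand, to TTGCNNAA (a core of sites for CCAAT/enhancer binding proteins), GAGGAAG (a core of sites for Ets factors) or TATAAA (the TATA box), motifs that do not overlap here.
S100a8: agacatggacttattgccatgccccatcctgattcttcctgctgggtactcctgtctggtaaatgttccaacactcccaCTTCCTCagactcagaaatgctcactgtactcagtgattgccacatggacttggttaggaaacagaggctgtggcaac
S100a9: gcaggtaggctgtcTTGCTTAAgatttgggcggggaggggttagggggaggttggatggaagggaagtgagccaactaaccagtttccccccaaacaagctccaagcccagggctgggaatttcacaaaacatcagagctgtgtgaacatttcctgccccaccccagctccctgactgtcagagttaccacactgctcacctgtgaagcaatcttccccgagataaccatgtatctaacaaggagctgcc
S100a4: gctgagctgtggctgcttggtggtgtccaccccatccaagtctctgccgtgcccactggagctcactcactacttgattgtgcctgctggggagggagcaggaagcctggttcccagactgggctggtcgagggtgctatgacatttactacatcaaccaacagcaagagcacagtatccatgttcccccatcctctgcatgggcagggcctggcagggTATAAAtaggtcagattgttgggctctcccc
S100a6: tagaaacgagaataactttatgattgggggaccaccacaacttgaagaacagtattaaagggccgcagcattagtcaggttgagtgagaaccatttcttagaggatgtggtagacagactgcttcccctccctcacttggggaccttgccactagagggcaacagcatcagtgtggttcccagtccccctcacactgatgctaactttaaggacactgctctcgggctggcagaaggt
The *S100a8* window holds 1 match to GAGGAAG, on the minus strand, the *S100a9* window 1 match to TTGCNNAA, the *S100a4* window 1 match to TATAAA and the *S100a6* window none of the 3 motifs. Of all 32851 promoter windows of the table, which are of different lengths, 9.56% held TTGCNNAA, 10.6% GAGGAAG and 12.4% TATAAA. A match describes the letters of the window only.

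**Figure D1:**
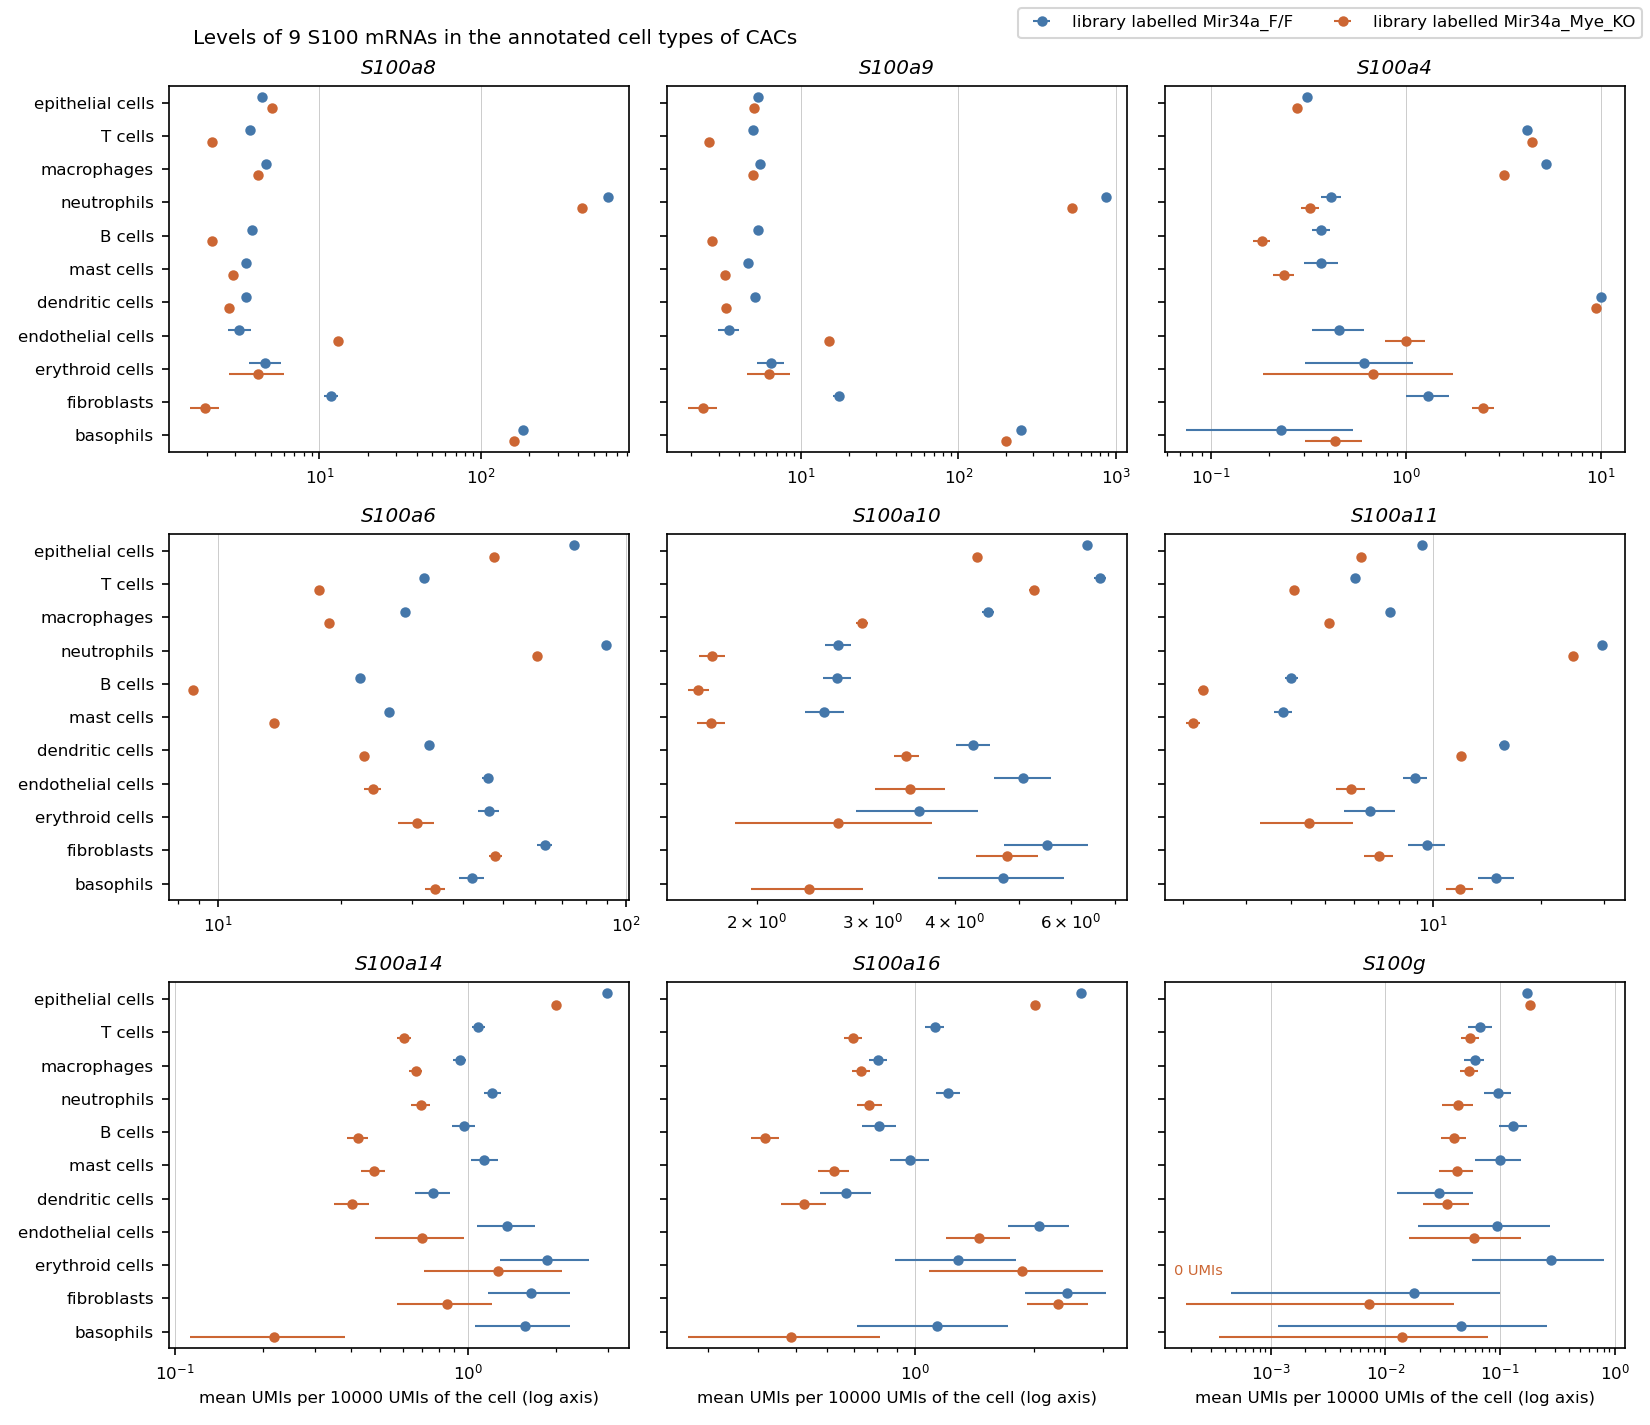
Levels of the 9 S100 mRNAs (mean UMIs per 10000 UMIs of the cell, log axis, which differs between panels) in the 11 annotated cell types of the libraries labelled Mir34a_F/F (blue) and Mir34a_Mye_KO (orange). Points are means over cells and bars are nominal 95% exact Poisson intervals of the summed UMIs, scaled to the mean. *S100a8* and *S100a9* stand out in neutrophils and basophils, *S100a4* in dendritic cells, macrophages and T cells, and *S100a14* in epithelial cells.

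*S100a8* and *S100a9*, the calprotectin mRNAs, were by far highest in neutrophils. The level of *S100a8* in neutrophils was 610.3 (608 to 612) and 426 (425 to 427), and that of *S100a9* was 866 (863 to 868) and 529 (528 to 530). In the next cell type, basophils, *S100a8* was at 183 (178 to 189) and 161 (158 to 165) and *S100a9* at 251 (245 to 258) and 202 (198 to 206). No other cell type exceeded 17.3, so that neutrophils stood 191-fold and 219-fold above the lowest cell type for *S100a8* and 250-fold and 223-fold for *S100a9*. Together, both mRNAs made up 14.8% and 9.55% of all UMIs of the average neutrophil, and the 9 S100 mRNAs 16.0% and 10.4%. In epithelial cells, the 9 mRNAs made up 1.06% and 0.727%, almost all of it not calprotectin (0.0971% and 0.101%).

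Neutrophils were not uniform. In 10% of the annotated neutrophils the *S100a8* level was below 20.1 and 13.5, the median was 599 and 413, and 10% were above 1206 and 853. An *S100a8* level of at least 100 was found in 857 of 1053 neutrophils (81.4%, exact binomial interval 78.9 to 83.7) and in 846 of 1077 (78.6%, 76.0 to 81.0). These intervals cover the count of cells within a library and do not compare the genotypes. Among the other neutrophils, 105 and 134 cells were below 20. The neutrophils without a UMI of *Csf3r*, *Cxcr2*, *Retnlg*, *Mmp9* or *G0s2*, markers of this cell type, numbered 73 and 41, and their *S100a8* level was 61.1 and 27.3, against 651 and 442 in the neutrophils with such a UMI. Neutrophils with a UMI of *Siglecf*, found on aged and tumor-associated neutrophils, and none of *Retnlg* numbered 2 and 5, too few to describe.

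Outside neutrophils and basophils, *S100a8* and *S100a9* were found in every cell type at a low and similar level. *S100a8* lay between 3.20 and 11.8 in the library labelled Mir34a_F/F and between 1.94 and 13 in the library labelled Mir34a_Mye_KO, which is 0.524% to 1.94% and 0.456% to 3.04% of the level in neutrophils. *Retnlg*, a secreted resistin-like protein of neutrophils, was at 0.472% to 2.40% and 0.423% to 6.22% of its level in neutrophils in the same cell types, and both mRNAs had their highest value outside neutrophils and basophils in fibroblasts of one library and in endothelial cells of the other. T cells, which do not make calprotectin, had an *S100a8* UMI in 58.7% and 67.0% of cells at median depths of 3548 and 8043 UMIs. Epithelial cells had an *S100a8* UMI in 67.7% and 71.1% at 5315.5 and 6623 UMIs. With every cell thinned to 1000 UMIs, these shares were 24.7% and 14.6% for T cells and 22.7% and 24.8% for epithelial cells. In droplet data, free RNA gives UMIs in cells that do not express a gene, and a share at or below that of T cells is not read as expression here. In the library labelled Mir34a_F/F, the thinned share of epithelial cells did not exceed that of T cells, while their level of *S100a8* was 4.42 (4.37 to 4.46) against 3.72 (3.61 to 3.84). In the library labelled Mir34a_Mye_KO, the thinned share of epithelial cells (23.9 to 25.7) was above that of T cells (13.3 to 16.0), as was the level of *S100a8* (5.06 and 2.15). Among neighbours in the order of levels, the counting intervals overlapped in 6 and 5 of 10 neighbouring pairs for *S100a8* and in 6 and 5 of 10 for *S100a9*, and none of these pairs included neutrophils or basophils.

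**Figure D2:**
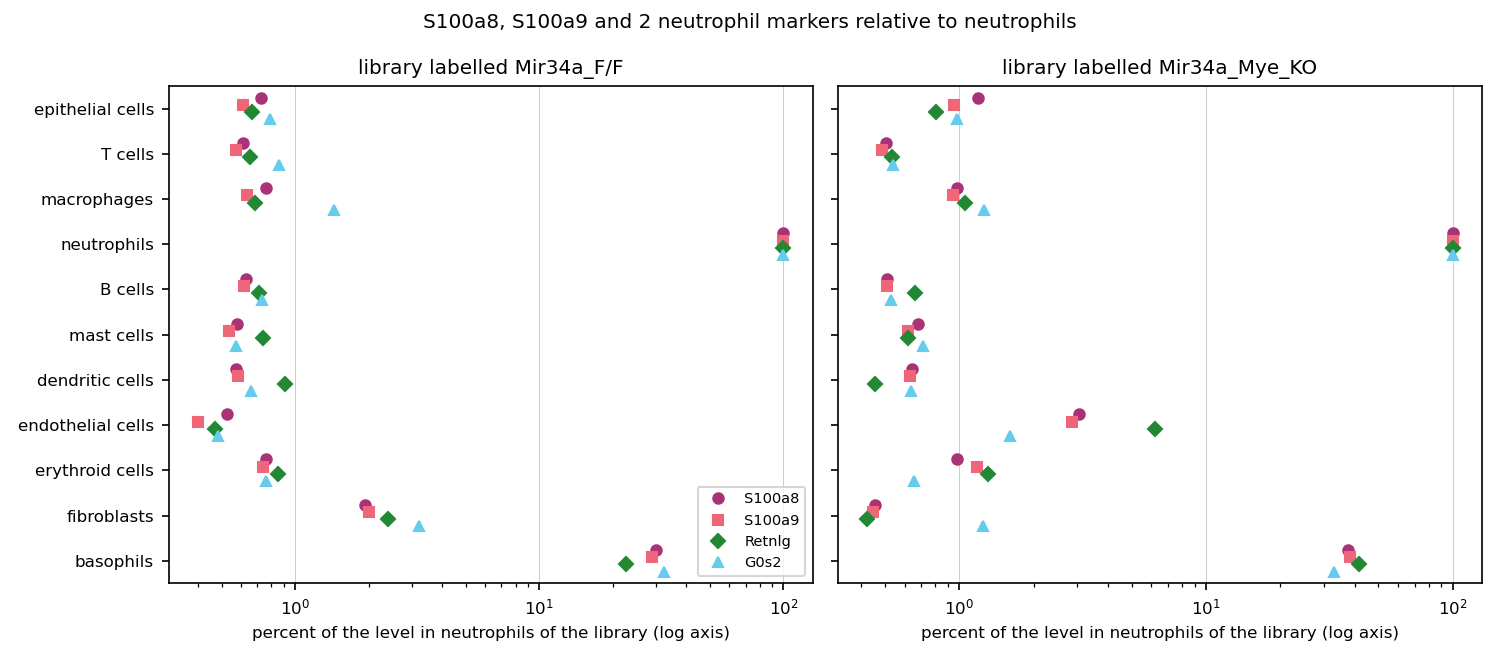
Levels of *S100a8*, *S100a9* and the neutrophil markers *Retnlg* and *G0s2* in each annotated cell type, as percent of the level in neutrophils of the same library (log axis). Most values lie near 1% in both libraries, those of basophils between 22.7% and 41.5%, and those of fibroblasts (library labelled Mir34a_F/F) and endothelial cells (library labelled Mir34a_Mye_KO) in between.

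The *S100a8* in annotated basophils came from a part of the cells. In the library labelled Mir34a_F/F, 14 of 48 basophils had an *S100a8* level of at least 100 and the other 34 were below 20, with no cell between. In the library labelled Mir34a_Mye_KO, 17 of 40 were at or above 100, 1 was between and 22 were below 20. The high cells had *S100a8* levels of 622 and 372, as in neutrophils, *S100a9* of 845 and 466, *Retnlg* of 80.7 and 68.8, *G0s2* of 22.1 and 19.8, and *Csf3r*, the G-CSF receptor, of 3.57 and 3.52. *Mcpt8*, the basophil protease, had 0 UMIs in the 14 high cells, which allows up to 21.4% of cells with a UMI and sets no limit on cells expressing the gene, and was found in 1 of the 17, with 30 UMIs. Other basophil markers were found in the high cells, *Cyp11a1* in 10 of 14 and 15 of 17 and *Cd200r3* in 6 of 14 and 11 of 17. *Fcer1a* was at 2.91 and 4.03 in the high cells and at 1.42 and 2.56 in the low cells, and *Cyp11a1* at 4.19 and 3.97 against 16.0 and 16.4. *Cd200r3* was at 1.86 and 2.20 against 3.93 and 7.66, and *Il4* at 2.95 and 0.543 against 5.05 and 6.52. The 34 and 22 low cells had *Mcpt8* levels of 21.9 and 23.9, *S100a8* levels of 2.35 and 1.33 and no UMI of *Csf3r* or *Mmp9*, which allows up to 8.82% and 13.6% of cells with a UMI. Other neutrophil markers were found in some low cells, *Cxcr2* in 5 and 5, *Retnlg* in 5 and 6 and *G0s2* in 0 and 3. *Cxcr2* was at 0.488 and 0.241 in the low cells against 1.18 and 1.06 in the high cells. The high cells thus carried neutrophil mRNAs together with some basophil mRNAs, and what they are was not tested. *S100a6* and *S100a11* were also higher in them, *S100a6* at 67.9 and 52.5 against 31.3 and 20.4, and *S100a11* at 27.9 and 18.8 against 9.65 and 6.59. *S100a10* was lower in them, at 1.15 and 1.04 against 6.20 and 3.39.

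The higher means in fibroblasts and endothelial cells came from single cells. In fibroblasts of the library labelled Mir34a_F/F, 1 of 57 cells had an *S100a8* level of at least 100, namely 481, and the median was 1.33. In endothelial cells of the library labelled Mir34a_Mye_KO, 2 of 107 cells were at or above 100, the highest at 588, and the median was 1.36. The medians of these cell types in the other library, 1.30 and 1.54, were close to these values.

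Among the other cell types, cells with an *S100a8* level of at least 100 were rare, with 51 (0.439%) and 62 (0.628%) epithelial cells and 17 (0.770%) and 22 (0.846%) macrophages. These cells also held neutrophil mRNAs. In the epithelial cells at or above 100, *Retnlg* was at 23.1 and 11.9, against 0.604 and 0.524 in the other epithelial cells. Their *Epcam*, the epithelial adhesion molecule, was at 15.1 and 10.6, against 14 and 11. In the macrophages at or above 100, *Retnlg* was at 33.3 and 40.4, against 0.466 and 0.440 in the others, and *C1qa*, the complement component of macrophages, at 6.11 and 16.5 against 13.3 and 16.2. The epithelial cells at or above 100 had median depths of 5171 and 2678 UMIs, against 5316 and 6653 in the other epithelial cells. The macrophages at or above 100 had 8432 and 25247.5, against 7248 and 11177 in the others. The authors removed doublets with Scrublet, and the part of remaining doublets in these cells was not tested.

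The ratio of *S100a9* to *S100a8* was lower in epithelial cells than in neutrophils in both libraries. The ratio may hold a difference in capture between both mRNAs, so only its change between cell types is described. It was 1.41 (1.41 to 1.42) and 1.23 (1.22 to 1.23) *S100a9* UMIs per *S100a8* UMI in neutrophils, 1.43 (1.37 to 1.49) and 1.2 (1.15 to 1.24) in T cells, 1.43 (1.38 to 1.49) and 1.25 (1.21 to 1.29) in basophils and 1.46 (1.4 to 1.53) and 1.27 (1.22 to 1.32) in B cells. In epithelial cells, it was 1.19 (1.17 to 1.21) and 0.748 (0.736 to 0.760), off the interval in neutrophils of the same library in both cases. These ratios are of UMIs summed over cells, in which deep cells weigh more. As means over epithelial cells, *S100a9* and *S100a8* were at 5.29 and 4.42 in the library labelled Mir34a_F/F. In the library labelled Mir34a_Mye_KO, they were at 5.03 and 5.06. Epithelial cells with more *S100a9* than *S100a8* UMIs numbered 5085 and 3821, and those with fewer 3499 and 3550. Macrophages were below the interval in neutrophils in the library labelled Mir34a_F/F, at 1.28 (1.25 to 1.32), and overlapped with it in the library labelled Mir34a_Mye_KO, at 1.2 (1.18 to 1.23). In macrophages without a UMI of any of the 5 neutrophil markers named above, the ratio was 1.04 (0.965 to 1.12) and 1.0 (0.931 to 1.08). Mast cells were below neutrophils in the library labelled Mir34a_Mye_KO, at 1.06 (1.01 to 1.12), and dendritic cells of that library were above them, at 1.32 (1.25 to 1.4). Endothelial cells of the library labelled Mir34a_F/F were at 1.13 (0.904 to 1.42). The 73 and 41 neutrophils without a UMI of a neutrophil marker had ratios of 1.13 (1.04 to 1.22) and 0.751 (0.650 to 0.867), the latter near that of epithelial cells, and 10 cells held 76.2% and 86.1% of their *S100a8* UMIs. In fibroblasts of the library labelled Mir34a_Mye_KO, where 94 and 86 UMIs were found, the ratio was 0.915 (0.675 to 1.24), and no difference from neutrophils was detectable at this depth.

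**Figure D3:**
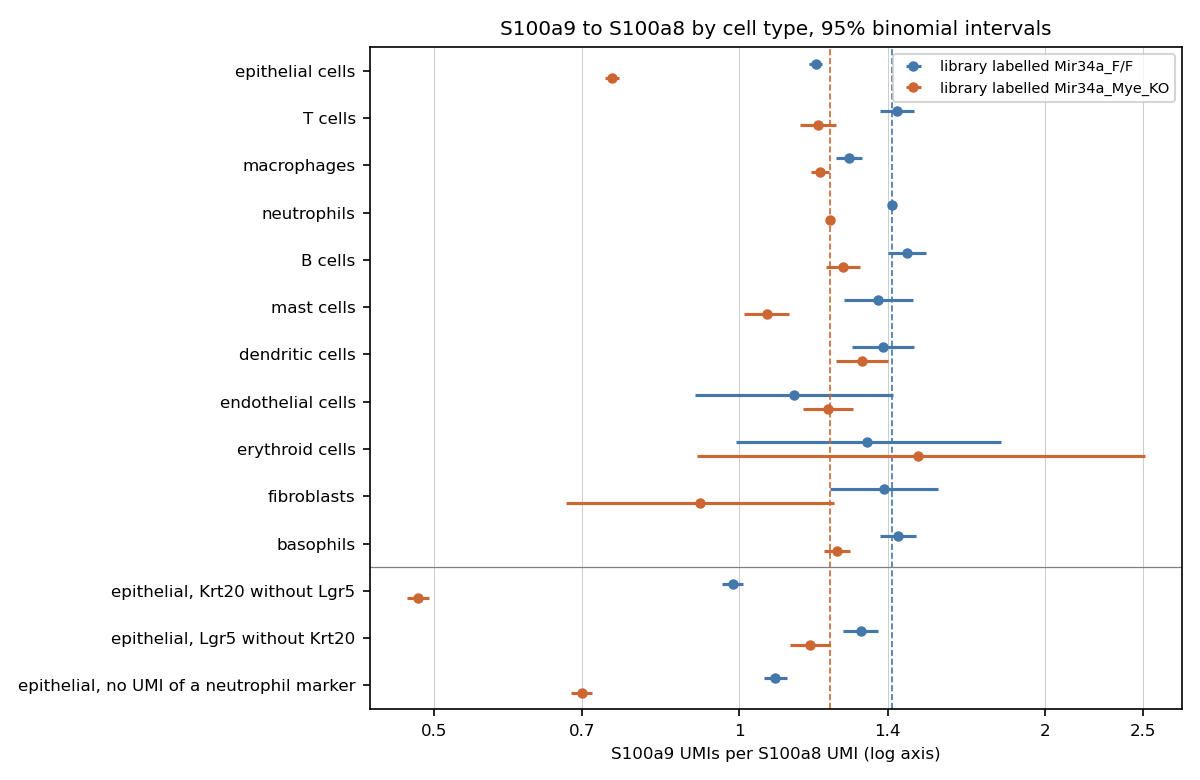
*S100a9* UMIs per *S100a8* UMI (log axis) in each annotated cell type and, below the line, in 3 groups of epithelial cells, in the libraries labelled Mir34a_F/F (blue) and Mir34a_Mye_KO (orange). Bars are 95% exact binomial intervals and dashed lines the values of neutrophils. Epithelial cells with *Krt20* have the lowest ratios of both libraries, 0.985 and 0.482.

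Between groups of epithelial cells set apart by markers, the ratio was lower where *Krt20*, a keratin of differentiated surface colonocytes, was detected than where *Lgr5* was. The epithelial cells outside both groups were not measured by themselves. In epithelial cells with a *Krt20* UMI and none of *Lgr5*, 3308 and 2851 in number, it was 0.985 (0.962 to 1.01) and 0.482 (0.470 to 0.494). In those with a UMI of *Lgr5*, the stem cell receptor, and none of *Krt20*, 1646 and 1283 in number, it was 1.32 (1.26 to 1.37) and 1.17 (1.12 to 1.23). These values are nearer the ratio of neutrophils, but in the library labelled Mir34a_F/F still below its interval of 1.41 to 1.42. Without the cells at or above 100, the ratio of the *Krt20* cells was 0.887 (0.862 to 0.913) and 0.477 (0.464 to 0.490). The *Lgr5* cells were not measured in this way. In epithelial cells without a UMI of any of the 5 neutrophil markers, the ratio was 1.09 (1.06 to 1.11) and 0.699 (0.683 to 0.715), and in those with such a UMI 1.25 (1.23 to 1.27) and 0.793 (0.776 to 0.810). The 10 cells with the most *S100a8* held 20.7% and 15.8% of the *S100a8* UMIs of the *Krt20* cells. In the *Lgr5* cells, the 10 highest held 39.5% and 48.0%, so the ratio of the *Lgr5* cells rests in large part on few cells. These splits were chosen after the ratios were seen.

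Single epithelial cells carried *S100a8* with little *S100a9*. Of the 292 and 330 epithelial cells with at least 20 UMIs of both mRNAs together, 37 and 129 had at least 5 times as many *S100a8* as *S100a9* UMIs, while 5 and 3 had the opposite excess. *Krt20* was found in 36 of the 37 and 123 of the 129, against 161 of 255 and 118 of 201 of the other epithelial cells with at least 20 UMIs. These cells held 2062 and 9108 *S100a8* UMIs and 141 and 670 *S100a9* UMIs, up to 227 and 406 *S100a8* UMIs in a cell, and 22 and 68 of them had no UMI of a neutrophil marker. In neutrophils, 16 of 909 and 15 of 940 cells had such an excess of *S100a8*. The number in the libraries depends on how cells are chosen, since the median depth of the 37 and 129 cells was 10016 and 19335 UMIs. With cells chosen by at least 20 per 10000 in place of 20 UMIs, 115 of 796 and 146 of 733 epithelial cells had the excess. An excess of *S100a8* was also found in 17 of 49 and 5 of 55 macrophages with at least 20 UMIs.

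*S100a4*, which binds non-muscle myosin, was an mRNA of dendritic cells, macrophages and T cells. Its level was 9.96 (9.56 to 10.4) and 9.44 (9.19 to 9.68) in dendritic cells, 5.25 and 3.18 in macrophages and 4.18 and 4.43 in T cells. Fibroblasts followed with 1.30 and 2.50. All other cell types were between 0.182 and 1.0, with 5 to 2441 UMIs each in the library labelled Mir34a_F/F, so that dendritic cells stood 43.4-fold and 51.8-fold above the lowest cell type. Neutrophils, with the highest calprotectin, had 0.414 and 0.323, and epithelial cells 0.313 and 0.278. In these low cell types the intervals of neighbours in the order overlapped in most cases, in 6 and 5 of the 10 neighbouring pairs of all 11 cell types.

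Within macrophages, *S100a4* marked the cells with monocyte mRNAs. In macrophages with a UMI of *Ly6c2*, a surface protein of inflammatory monocytes, and none of *Mrc1*, 409 and 363 in number, the level of *S100a4* was 16.1 and 14.2. In macrophages with a UMI of *Mrc1*, the mannose receptor of resident macrophages, and none of *Ly6c2*, 769 and 1101 in number, it was 1.02 and 0.576. The log2 ratio between these cells was 3.97 (3.87 to 4.07) and 4.62 (4.53 to 4.71), the largest of the 8 members with enough UMIs in both libraries. Macrophages with *Arg1* and without *Mrc1*, 537 and 343 in number, were between, at 5.43 and 4.75. *S100a10*, *S100a11* and *S100a6* were higher in the *Ly6c2* cells as well, with log2 ratios of 1.79 and 2.19, 1.48 and 1.43, and 1.23 and 1.30. *S100a8* and *S100a9* were also higher there, by 1.72 and 1.23 and by 1.55 and 1.17. The 10 macrophages with the most *S100a8* held 39.3% and 46.8% of the *S100a8* UMIs of all macrophages, and their part in these ratios was not tested. *S100a14* and *S100a16* had log2 ratios between -0.46 and 0.06.

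**Figure D4:**
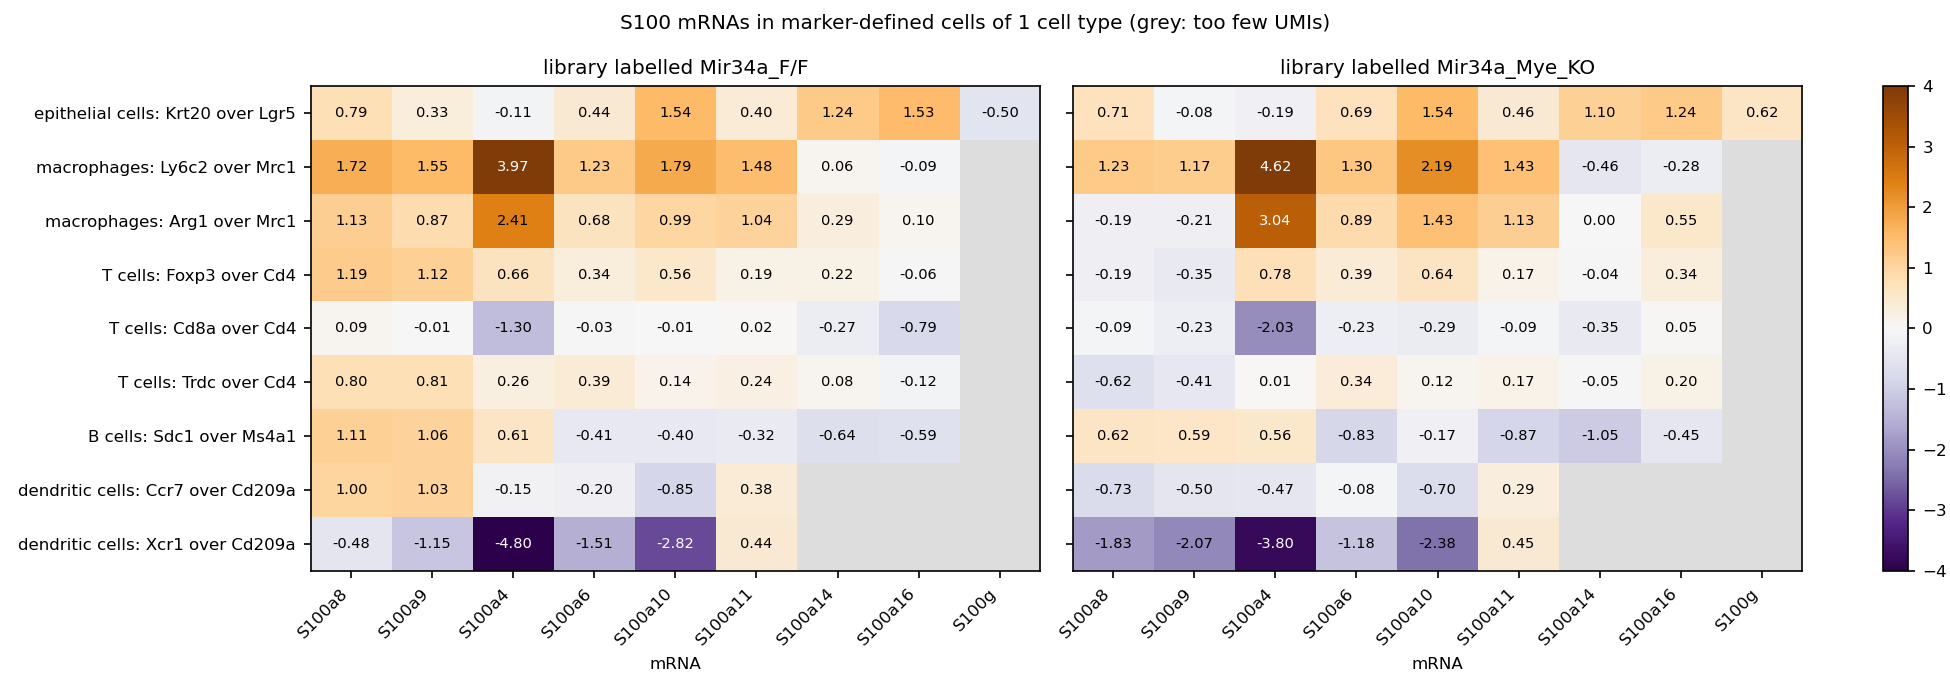
Levels of the S100 mRNAs in cells of a cell type that have a UMI of 1 marker and none of another, as log2 of the ratio between the groups of cells named at each row, in both libraries. Grey fields had fewer than 20 UMIs in a group, and neutrophils, with 2 and 5 *Siglecf* cells, are not plotted. Among the pairs plotted, *S100a4* has the largest ratios, positive for *Ly6c2* over *Mrc1* macrophages and negative for *Xcr1* over *Cd209a* dendritic cells.

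Dendritic cells were split by the same mRNA. Dendritic cells with *Cd209a*, a lectin of monocyte-like and type 2 dendritic cells (41 and 68), had *S100a4* levels of 15.1 and 16.1, and those with *Ccr7*, the receptor of migratory dendritic cells (152 and 192), had 13.6 and 11.6. In dendritic cells with *Xcr1*, the chemokine receptor of cross-presenting type 1 dendritic cells (37 and 47), the level was 0.543 and 1.15, lower than in the *Cd209a* cells by log2 ratios of -4.80 (-5.47 to -4.19) and -3.80 (-4.20 to -3.43). *S100a10* (-2.82 and -2.38) and *S100a6* (-1.51 and -1.18) were lower in the *Xcr1* cells too, whereas *S100a11* was slightly higher, by 0.44 (0.25 to 0.63) and 0.45 (0.33 to 0.56). The members therefore did not follow each other within dendritic cells.

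In T cells, *S100a4* was higher in regulatory T cells and lower in CD8 T cells than in the other CD4 T cells. T cells with *Foxp3*, the transcription factor of regulatory T cells (465 and 598), had 7.91 and 8.05. T cells with *Cd4* and without *Foxp3* (608 and 780) had 5.00 and 4.70, and T cells with *Cd8a* (157 and 165) had 2.03 and 1.15. The log2 ratio to the *Cd4* cells was 0.66 (0.57 to 0.76) and 0.78 (0.72 to 0.84) for *Foxp3* and -1.30 (-1.51 to -1.10) and -2.03 (-2.22 to -1.84) for *Cd8a*. T cells with *Trdc*, a constant gene of the gamma-delta receptor (198 and 187), had 6.00 and 4.74. *S100a10* showed the order of *Foxp3* over *Cd4*, with 9.82 and 7.78 against 6.68 and 5.00, but not the lower value in *Cd8a* cells of the library labelled Mir34a_F/F, with 6.63.

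*S100a6* was the most evenly spread of the members with a high level. It was highest in neutrophils, at 89.7 (88.9 to 90.5) and 60.5 (60.0 to 61.0), followed by epithelial cells at 74.8 and 47.5 and fibroblasts at 63.3 and 47.9. The lowest level, in B cells, was 22.4 and 8.68, which is 4.01-fold and 6.97-fold below neutrophils. A UMI of *S100a6* was found in 96.7% to 100% of the cells of every cell type, the highest shares of the 9 members. These shares are not read as expression in every cell type, since *S100a6* in B cells was at 29.9% and 18.3% of the epithelial level, and *Epcam* was at 28.3% and 21.2% there. In fibroblasts and epithelial cells of the library labelled Mir34a_Mye_KO, the intervals overlapped. Among B cells, those with *Sdc1*, the syndecan of plasma cells (277 and 506), had 17.1 and 6.06, less than the 22.7 and 10.8 of the cells with *Ms4a1* (226 and 215), which encodes CD20. The log2 ratios were -0.41 and -0.83, beside -0.64 and -1.05 for *S100a14*, which is not read as expression in B cells. The lower *S100a6* of the *Sdc1* cells is therefore not read as a difference in expression.

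*S100a11* had its highest level in neutrophils too, 29.5 (29.1 to 30.0) and 24.5 (24.2 to 24.8), with dendritic cells at 15.7 and 12.0 and basophils at 15.0 and 11.8. The lowest level, in mast cells, was 3.81 and 2.13. These 3 cell types had the same order in both libraries, with overlapping intervals between dendritic cells and basophils. Its partner *Anxa1* was highest in epithelial cells, at 5.00 and 3.62, and was at 4.01 and 3.24 in neutrophils.

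*S100a10* differed least between cell types, from 6.65 and 5.27 in T cells to 2.53 in mast cells and 1.63 in B cells, a range of 2.63-fold and 3.23-fold. Epithelial cells had 6.36 and 4.32 and fibroblasts 5.52 and 4.80, and the interval of T cells overlapped with that of fibroblasts in the library labelled Mir34a_Mye_KO. *Anxa2*, whose protein binds S100A10, was at 8.27 and 5.81 in epithelial cells and lowest in B cells, at 2.85 and 1.28. Neutrophils were among the lowest cell types for *S100a10*, with 2.66 and 1.71, although they were highest for *S100a6* and *S100a11*.

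*S100a14* was the epithelial member, and *S100a16* was found in epithelial cells and fibroblasts at similar levels. *S100a14* was at 2.98 (2.94 to 3.01) and 2.01 (1.98 to 2.03) in epithelial cells. The next value, in erythroid cells, was 1.86 (1.29 to 2.59) and 1.27 (0.710 to 2.09), from 34 and 15 UMIs, and the remaining cell types were between 0.761 and 1.64 and between 0.218 and 0.849. These are 25.6% to 62.4% and 10.8% to 63.3% of the epithelial level. Epithelial markers were found outside epithelial cells in like shares, *Epcam* at 19.7% to 45.3% and 17.4% to 40.8% and *Krt8* at 25.1% to 71.3% and 19.4% to 89.1%, so no *S100a14* expression is read in the other cell types. *S100a16* was at 2.63 and 2.01 in epithelial cells, 2.42 and 2.30 in fibroblasts and 2.06 and 1.45 in endothelial cells, with overlapping intervals between epithelial cells and fibroblasts in both libraries. The level in fibroblasts was 92.1% and 114% of that in epithelial cells, more than for *Epcam* (23.2% and 35.7%) and *Krt8* (42.0% and 37.2%).

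Within epithelial cells, the members separated *Krt20* from *Lgr5* cells. *S100a10* was at 10.5 and 7.01 in the *Krt20* cells and 3.62 and 2.41 in the *Lgr5* cells, a log2 ratio of 1.54 (1.5 to 1.57) and 1.54 (1.49 to 1.60). *S100a16* followed with 1.53 (1.47 to 1.59) and 1.24 (1.16 to 1.32) and *S100a14* with 1.24 (1.19 to 1.29) and 1.10 (1.02 to 1.17). *S100a6* and *S100a11* differed less, by 0.44 and 0.69 and by 0.40 and 0.46, and *S100a4* had ratios of -0.11 and -0.19. *S100a8* was higher in the *Krt20* cells, by 0.79 (0.74 to 0.84) and 0.71 (0.66 to 0.76), whereas *S100a9* had ratios of 0.33 (0.28 to 0.37) and -0.08 (-0.13 to -0.02).

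*S100g*, calbindin-D9k, was rare. In epithelial cells its level was 0.171 (0.164 to 0.178) and 0.183 (0.172 to 0.194), from 2091 and 1154 UMIs in 6.12% and 4.68% of cells, with single cells up to 125 and 129 per 10000. Erythroid cells, with 3 UMIs, had a mean of 0.276 (0.0570 to 0.807) in the library labelled Mir34a_F/F, and 0 UMIs in 30 cells in the library labelled Mir34a_Mye_KO, which allows up to 10.0% of cells with a UMI and, at a median of 2312 UMIs per cell, sets no limit on cells expressing the gene. *Trpv6*, the calcium channel of the same absorptive pathway, was at 0.435 and 0.325 in epithelial cells, and *Vdr*, the vitamin D receptor, was highest in dendritic cells, at 0.520 and 0.701. *S100g* went with neither *Krt20* nor *Lgr5* in both libraries, with log2 ratios of -0.50 and 0.62.

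The libraries gave the same top cell type for 7 of the 9 members, beside 54.7% of all genes. The exceptions were *S100a16*, highest in epithelial cells and then in fibroblasts, and *S100g*. *S100a8*, *S100a9*, *S100a4*, *S100a11* and *S100a14* had the same top cell type in both libraries under each of the 5 other ways of computing the level that could change it. Those of *S100a6*, *S100a10*, *S100a16* and *S100g* depended on it, and summing UMIs over cells, for example, put epithelial cells on top for *S100a6* and *S100a10* in the library labelled Mir34a_F/F.

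Over the 22 pairs of cell type and library, *S100a8* and *S100a9* had almost the same profile, with a Pearson correlation of 0.998 on the log2 scale. These points share libraries, depth and free RNA, so correlations are given as a description. The genes most like *S100a8*, among 4131 genes with a level of at least 1, were *S100a9*, *Retnlg* (0.991) and *Wfdc21* (0.982). *S100a6* was most like *Anxa1* (0.928) and *Anxa2* (0.886), *S100a14* most like the epithelial genes *Cldn7* (0.967), *Krt8* (0.955) and *Lgals4* (0.952), and *S100a16* most like *Rdh10* (0.933), *Tpm1* (0.929) and *Pam* (0.926). For *S100a4*, the nearest were *Map3k14* (0.889), *Got1* (0.867) and *Psme2* (0.841), for *S100a11* *Ifitm6* (0.849), *Bcl3* (0.844) and *Gcnt2* (0.844), and for *S100a10* *Hnrnpul2* (0.824), *Abcf1* (0.786) and *Tle5* (0.777). *S100a14* and *S100a16* correlated at 0.810 and *S100a6* and *S100a11* at 0.763.

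The levels in the library labelled Mir34a_Mye_KO were compared with those in the library labelled Mir34a_F/F, the question of the study being what the myeloid deletion changes in the cells of CACs. Most S100 levels were lower in the library labelled Mir34a_Mye_KO, before any subtraction of background. A difference of at least 1.5-fold was taken as a rule of size among mRNAs with a level of at least 0.1 in a library and UMIs in both, which 90 of the 99 pairs of member and cell type met. Of these, 39 were lower and 5 higher by 1.5-fold or more, beside 18.9% lower and 10.7% higher of all pairs of gene and cell type, and 80 had a log2 ratio below 0, beside 62.3%. The balance depended on the background. When the level of the lowest cell type was subtracted, 16 were lower and 11 higher of 75 pairs with a value, and 12 of the 44 had none. With a pseudocount of 1, 17 were lower and 3 higher of 90 pairs. The shares of all genes were not computed for these settings. With 412 immunoglobulin, mitochondrial and rRNA-like genes left out of the total, 27 were lower and 6 higher, beside 13.9% lower and 14.2% higher of all other pairs of gene and cell type. Without *S100a8* and *S100a9* outside neutrophils and basophils and *S100a14* outside epithelial cells, a choice made after the values were seen, 62 pairs remain, of which 24 were lower, 3 higher and 55 below 0. No share of all genes was computed for this choice. The 62 pairs are not free of background. They still hold *S100a10* and *S100a16* in neutrophils, *S100a6* in B cells and *S100a16* in lymphocytes and mast cells, whose ratios are not read as changes of these cells below. With 1 library per genotype, no p-value exists for these differences.

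Among the myeloid cells, in which LysM-Cre acts, *S100a8* in neutrophils had a log2 ratio of -0.52 (-0.52 to -0.51), within 1.5-fold, and *S100a9* of -0.71 (-0.72 to -0.70). *S100a10*, *S100a14* and *S100a16* were lower by 1.5-fold or more together with *S100a9*, which gives 4 of 8 members in neutrophils beside 13.5% of all genes, while 0 were higher beside 5.55%. *S100a14* is not read as expression in neutrophils, and without it 3 of 7 were lower. One of these 3 is *S100a16*, at 46.2% and 38.1% of its epithelial level in neutrophils, where *Krt8* was at 41.7% and 36.1% and *Epcam* at 34.7% and 30.1%, so its ratio is not read as a change of neutrophils. *S100a10*, another of the 3, was also at a share of its epithelial level like that of *Krt8*. Its ratio is not read as a change of neutrophils either. The epithelial markers had log2 ratios of -0.89 for *Krt8*, -0.84 for *Krt18*, -0.80 for *Cldn7*, -0.55 for *Epcam* and -0.33 for *Cdh1* in the same cells, and their part in the lower S100 levels was not tested. With the 412 genes left out of the total, *S100a9* and *S100a14* of the 4 stayed past 1.5-fold, and *S100a10* (-0.53) and *S100a16* (-0.53) did not. The rare *S100g* was newly lower, which gives 3 of 9 members with a value, beside 9.16% of all genes. The 5 neutrophil markers had log2 ratios of 0.72 for *Csf3r*, 0.55 for *Cxcr2*, 0.53 for *Mmp9*, 0.40 for *G0s2* and -0.50 for *Retnlg*. In macrophages, 3 of 8 members were lower beside 3.81% of all genes and 0 higher beside 1.83%. These were *S100a4* (-0.72, -0.76 to -0.68), *S100a10* (-0.64, -0.68 to -0.59) and *S100a6* (-0.62, -0.64 to -0.60), the last of which turned to 0.64 with the level of the lowest cell type subtracted. With the 412 genes left out of the total, only *S100a4* of these 3 stayed past 1.5-fold. *S100a4* was at 16.1 and 14.2 within the *Ly6c2* macrophages, which numbered 409 and 363, and at 1.02 and 0.576 within the *Mrc1* macrophages, which numbered 769 and 1101, and the part of this mixture in the lower mean was not tested. From UMIs summed over macrophages, *S100a4* had a log2 ratio of -0.35, within 1.5-fold. In dendritic cells, 2 of 8 were lower beside 8.07% and 0 higher beside 5.86%, and *S100a4* was at -0.08 (-0.15 to -0.01).

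In epithelial cells, 1 of 9 members was lower by 1.5-fold or more beside 4.49% of all genes, and 0 were higher beside 1.51%. This was *S100a6*, with -0.65 (-0.66 to -0.65). Median mitochondrial content of epithelial cells was 11.2% and 18.3%, and immunoglobulin, mitochondrial and rRNA-like genes together took 20.9% and 34.2% of the UMIs of the average cell. With these left out of the total, *S100a6* was at -0.39, and 0 of 9 members were lower, beside 0.913% of all genes. In cells with at least 500 mRNAs and under 10% mitochondrial, it was at -0.83. *S100a10*, *S100a11* and *S100a14* lay just within the limit, at -0.56, -0.57 and -0.57. *S100a8* had a log2 ratio of 0.20 (0.18 to 0.22), whereas *S100a9* had -0.07 (-0.09 to -0.05) and *S100g* 0.10 (-0.01 to 0.20). The epithelial markers were lower too, with -0.68 for *Krt8*, -0.70 for *Cldn7*, -0.52 for *Krt18*, -0.35 for *Epcam* and -0.27 for *Cdh1*.

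Among lymphocytes and mast cells, B cells had 9 of 9 members lower, beside 27.2% of all genes, and 0 higher beside 4.24%, the most of any cell type. B cells had the largest difference in depth. Their 5 markers had a summed level of 132 and 302, and immunoglobulin, mitochondrial and rRNA-like genes took 20.5% and 36.6% of the UMIs of the average B cell. With these left out of the total, 5 of 9 members were lower, beside 11.3% of all genes. *S100a6* in B cells, with a log2 ratio of -1.37 (-1.40 to -1.33) and of -1.02 with these genes left out, is at a share of the epithelial level like that of *Epcam*, and its ratio is not read as a change of B cells. T cells had 5 of 8 lower beside 8.87% and 0 higher beside 1.62%, led by *S100a9* (-0.95), *S100a6* (-0.86) and *S100a14* (-0.84), while *S100a4* was at 0.08 (0.04 to 0.13). Mast cells had 5 of 8 lower beside 16.7% and 0 higher beside 4.09%. Epithelial markers were lower in the same cells, with -1.47 for *Krt8*, -1.29 for *Cldn7* and -0.77 for *Epcam* in B cells and -1.04, -0.98 and -0.62 in T cells, and their part in the lower S100 levels was not tested. In T cells, B cells and mast cells, the levels of *S100a8*, *S100a9* and *S100a14* are not read as expression, and their ratios describe that background. *S100a16*, also among the lower members in these cell types, is not read as a change of them either. In the library labelled Mir34a_Mye_KO, it was at 0.418 in B cells against 2.01 in epithelial cells, a share like that of *Epcam*. The 5 lower members of T cells thus include *S100a8*, *S100a9*, *S100a14* and *S100a16*.

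The small cell types had many genes past 1.5-fold in either direction. Endothelial cells had 3 of 8 members lower beside 28.4% and 3 higher beside 15.3%, erythroid cells 1 of 8 lower beside 31.1% and 0 higher beside 34.7%, fibroblasts 3 of 8 lower beside 30.7% and 1 higher beside 21.7%, and basophils 3 of 8 lower beside 33.8% and 1 higher beside 22.1%. In endothelial cells, *S100a8* (2.02, 1.78 to 2.27) and *S100a9* (2.12, 1.90 to 2.35) were higher, and both ratios turned without the 2 cells at or above an *S100a8* level of 100, to -0.20 and -0.37. In fibroblasts, *S100a8* (-2.60) and *S100a9* (-2.87) were lower, with -0.82 and -1.33 without the 1 cell at or above 100. *S100a4* was higher in endothelial cells (1.14, 0.57 to 1.71, from 43 and 74 UMIs), in fibroblasts (0.94, 0.54 to 1.36, from 64 and 235 UMIs) and in basophils (0.91, -0.43 to 2.62, from 5 and 38 UMIs), and in basophils the interval includes 0. *S100a14* in basophils, from 30 and 12 UMIs, had a ratio of -2.85 (-3.95 to -1.84).

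**Figure D5:**
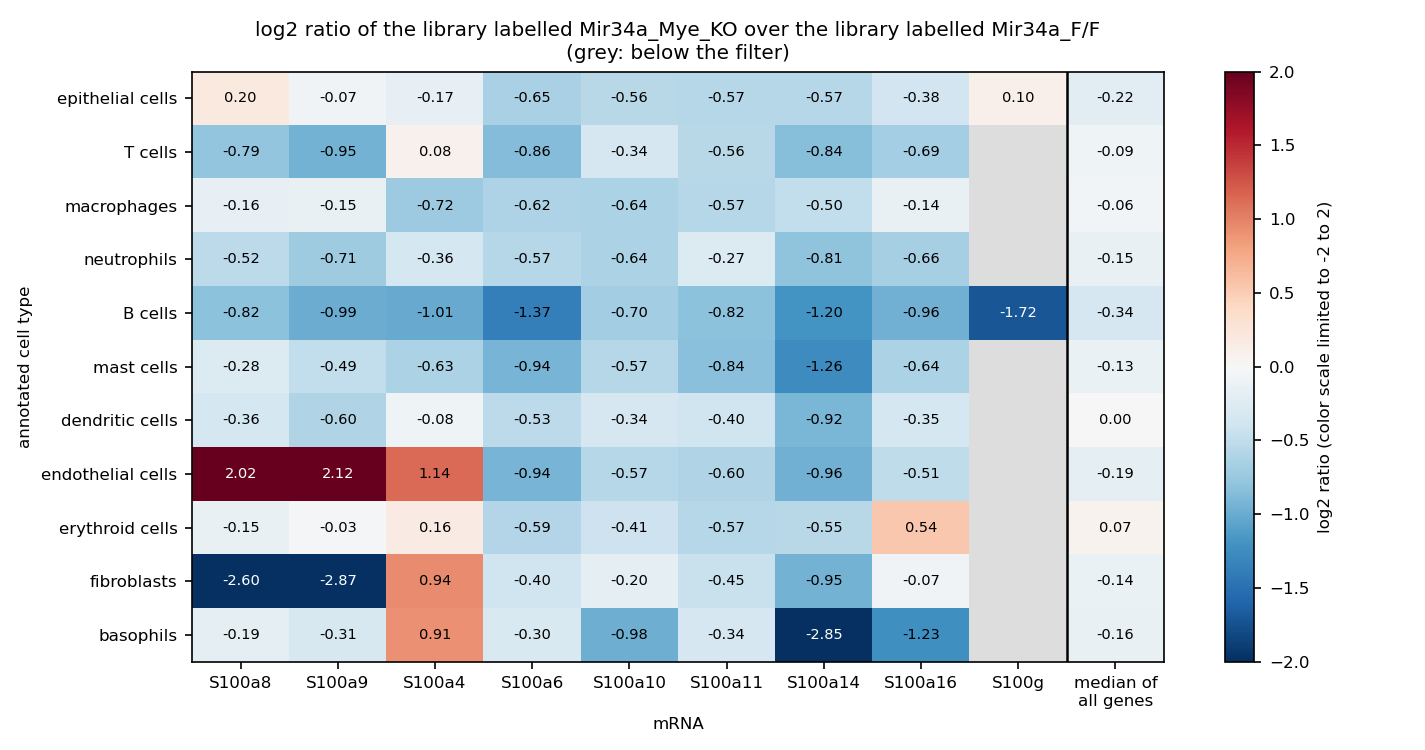
Log2 ratio of the level in the library labelled Mir34a_Mye_KO over that in the library labelled Mir34a_F/F in the 11 annotated cell types. The 9 S100 mRNAs are left of the black line and the median over all genes is right of it. Grey fields did not meet the filter. *S100a6*, *S100a10*, *S100a11* and *S100a14* are below 0 in 11 of 11 cell types before any subtraction of background.

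*S100a6*, *S100a10*, *S100a11* and *S100a14* had a log2 ratio below 0 in 11 of 11 cell types, and were lower by 1.5-fold or more in 7, 4, 3 and 8 of them. Of all pairs of gene and cell type, 62.3% were below 0, and the share of genes below 0 in 11 of 11 was not computed. For *S100a14*, the 8 are cell types in which no expression is read, and the epithelial markers *Krt8* and *Cldn7* were below 0 in 11 of 11 and *Epcam* in 10 of 11 cell types as well. With the level of the lowest cell type subtracted, the direction turned for *S100a6* in macrophages (0.64) and mast cells (0.36) and for *S100a14* in T cells (0.25) and neutrophils (0.070), among the levels past 1.5-fold. The ratios of *S100a6* ran from -1.37 in B cells to -0.30 in basophils. The median over the members was -0.38 in epithelial cells, -0.74 in T cells, -0.53 in macrophages, -0.60 in neutrophils, -0.99 in B cells, -0.64 in mast cells and -0.38 in dendritic cells, where the median over all genes was -0.22, -0.09, -0.06, -0.15, -0.34, -0.13 and 0.00. The mRNAs of 76 or 77 ribosomal proteins, which are short and abundant, had medians of -0.45, -0.39, -0.23, -0.45, -0.53, -0.20 and -0.22 in the same cell types. Those below 0 ranged over the 11 cell types from 57 of 76 in erythroid cells to 77 of 77 in neutrophils. Their part, and that of depth, in the lower S100 levels was not tested. With the 412 genes left out of the total, the median over all genes lay between -0.05 and 0.08 in these cell types, and *S100a6*, *S100a10*, *S100a11* and *S100a14* stayed below 0 in 11 of 11.

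Some partners and receptors were below 0 in most cell types like the members, and others were not. *Trpv6* was below 0 in 10 of 10 cell types and lower by 1.5-fold or more in 7, and *Cd36* was below 0 in 9 of 10 and lower in 4. *Anxa1* was below 0 in 11 of 11 cell types and lower by 1.5-fold or more in 3, and *Anxa2* was below 0 in 9 and lower in 3. *Tlr4*, a receptor for calprotectin, was highest in neutrophils, at 1.36 and 2.17, a log2 ratio of 0.67 (0.54 to 0.80). *Ager*, which encodes the receptor RAGE, had 200 UMIs in all cells, and *Cd36* was highest in macrophages, at 1.57 and 1.11. *Myh9*, a non-muscle myosin bound by S100A4, was within 1.5-fold in 11 of 11 cell types, and so was *Bsg*, the receptor basigin, which was below 0 in 8 of them. The calcium exporters *Atp2b1* and *Slc8a1* were higher by 1.5-fold or more in neutrophils, with 0.65 and 1.07, beside 5.55% of all genes. In the library labelled Mir34a_F/F, *Slc8a1* was lowest of all cell types in neutrophils, at 0.157 against 4.68 in dendritic cells. Its ratio is therefore not read as a change of neutrophils.

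Of the other S100 genes, *S100a1* and *S100a13* had the most UMIs, with 30068 and 34621 UMIs. *S100a1* was highest in fibroblasts, at 1.24 and 1.5, followed by epithelial cells at 1.22 and 0.823, and was lower by 1.5-fold or more in 6 of 11 cell types and higher in 1. *S100a13* was highest in fibroblasts, at 2.09 and 2.21, and lower in 1 of 10. *S100a3*, *S100a5*, *S100a7a*, *S100b* and *S100z* had 41 to 232 UMIs in all cells.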

How the data were processed

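Single-cell RNA sequencing reads were aligned to mm10 with Cell Ranger 7.2.0, and the authors set a minimum of 200 mRNAs and a maximum of 25% mitochondrial mRNAs per cell, removed doublets with Scrublet and assigned cell types. The deposited values are natural log values made by the authors with Seurat, the ln of UMIs scaled to 10000 per cell, with 1 added. In the deposited table, 2470 and 4130 cells were nevertheless at or above 25% when summed over mitochondrial genes, and these were kept. The log was undone, which gave whole UMIs with a largest deviation of 1.49e-10. Levels are means over cells, with exact Poisson intervals of the summed UMIs scaled to the mean. Ratios of levels have exact binomial intervals of the summed UMIs, shifted to the ratio of means. All are at a nominal 95% and for counting error only. They leave out that shallow cells weigh more in a mean over cells, so they can be too narrow even for counting error. Libraries, with 1 per genotype, were compared by size only (1.5-fold, level of at least 0.1 in a library, UMIs in both), since no test was possible. A share of 0 allows up to 3 counts. For shares at equal depth, cells were thinned to 1000 UMIs, leaving out shallower cells. Cells were also grouped by a UMI of 1 marker and none of another. Likeness was Pearson's correlation of log2(level + 0.1). The 9 genes and all lists, partners and receptors included, were chosen with earlier results of these data known, and genes named for likeness were the 3 highest per member. Promoter windows came from RefSeq and gene coordinates from the GENCODE annotation of the same build. No protein sequences were used. Scripts, tested on simulated data, ran in Python 3.11.15 with numpy 2.4.6, scipy 1.17.1, pandas 2.3.3 and matplotlib 3.10.9. The simulation tested the intervals for ratios of summed UMIs, not for ratios of means over cells.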

Additional observations from a re-analysis of the deposited data

Results flagged for a closer look

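For *S100a8*, the log2 ratio between the libraries in endothelial cells exceeded that in fibroblasts by 4.62, and for *S100a9* by 4.99, each with opposite directions in these cell types. Both values rest on the 2 endothelial cells and the 1 fibroblast with an *S100a8* level of at least 100, as given above. For *S100a4*, the log2 ratio in endothelial cells (1.14, from 43 and 74 UMIs) exceeded that in B cells (-1.01, from 335 and 431 UMIs) by 2.15, again with opposite directions. With 1 library per genotype, none of these 3 differences was tested.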

How the results depend on the processing

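No paired analysis was possible because each genotype has 1 library. In place of 39 lower and 5 higher levels, new counts gave 16 lower and 11 higher of 75 pairs with a value after the lowest cell type was subtracted. Of the 44, 19 were kept and 12 had no value, and 8 were added. The counts were 17 and 3 with a pseudocount of 1, 9 and 3 with a fold of 2, and 24 and 3 without *S100a8* and *S100a9* outside neutrophils and basophils and *S100a14* outside epithelial cells (chosen after seeing the data). Shares of all genes were not computed for these counts or for the subtraction. Of the 44 differences, those still past 1.5-fold numbered 41 with UMIs summed over cells, 36 in thinned cells, 40 in cells with at least 500 mRNAs and under 10% mitochondrial, 29 with 412 immunoglobulin, mitochondrial and rRNA-like genes left out of the total, and 40 with a level of at least 0.5. Pairs newly past 1.5-fold numbered 11, 7, 13, 4 and 0 in the same settings. After subtraction of the lowest cell type, the log2 ratio turned to 0.64 for *S100a6* in macrophages, 0.36 for *S100a6* in mast cells, 0.25 for *S100a14* in T cells and 0.070 for *S100a14* in neutrophils. Without other cells at or above 100 *S100a8* (chosen after seeing the data), *S100a8* in endothelial cells turned to -0.20 and *S100a9* to -0.37, and 42 of the 44 stayed past 1.5-fold. Without barcodes of both libraries (also chosen after seeing the data), 43 did. In the library labelled Mir34a_Mye_KO, *S100g* in *Krt20* over *Lgr5* epithelial cells turned to -0.63 with at least 2 marker UMIs, and *S100a8* in *Ccr7* over *Cd209a* dendritic cells to 0.33 with at least 2 marker UMIs and 0.46 in the cells with at least 500 mRNAs. The causes were not tested. Depth limits *S100g* and the small cell types, with 1 to 4 *S100g* UMIs in basophils, fibroblasts and endothelial cells.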
